A study of Mus musculus with 6 samples.

Results

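Nuclear receptors and their coregulators were followed in mouse hepatocytes that carry a cysteine-to-serine replacement in AEG-1, the protein encoded by *Mtdh*. The set holds 42 genes of the 55487 gene rows counted: the RXR family and its partners, the other receptors that act in liver, and the coactivators and corepressors they recruit. The genes were chosen by symbol, and all 42 were found by their Ensembl identifiers. Of the 42, 37 had enough counts to be tested, and *Vdr*, *Nr1h5*, *Hnf4g*, *Nr0b2* and *Nr2f1* did not.

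The study compared hepatocytes of AEG-1-C75S homozygotes (C75S, 3 libraries) with those of wild-type mice (WT, 3 libraries). In C75S, cysteine 75 of AEG-1 is replaced by serine, in a series on palmitoylation, the attachment of a fatty acid to cysteine; homozygotes and wild types were bred from matings of heterozygotes. The mice were adults of 6 to 8 weeks, RNA was taken 48 h after the cells were isolated, and every sample carries the treatment label Control. The labels leave it unsaid if each library is from a mouse of its own, so the p-values measure only the spread between these libraries, which may be technical.

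Nuclear receptors are transcription factors with a DNA-binding domain and, in most cases, a pocket for a small lipophilic ligand. RXR forms heterodimers with the retinoic acid, peroxisome proliferator, liver X, farnesoid X, pregnane X, thyroid hormone and vitamin D receptors, and ligand binding exchanges corepressors such as NCoR1 for coactivators of the p160 family. AEG-1 contains an LXXLL motif, the short helix through which coactivators dock on these receptors, and has been described as binding RXR and lowering RXR-dependent transcription in liver.

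Counts on genes ranged from 16944723 to 21044292 per library, so that 3 counts correspond to between 0.143 and 0.177 per 1e6 counts on genes. The CPM of genes given here are counts per 1e6 after TMM scaling of those totals, with factors of 0.982 to 1.03. The hepatocyte marker *Alb* was measured at 55643 to 70067 CPM. The 8 hepatocyte markers summed to 70136 to 82796 CPM in C75S and 78205 to 86395 CPM in WT, overlapping ranges. On the log2 scale 4 lay above 0 and 4 below (median 0.02). Of the 8, 2 were called higher in C75S and 0 lower, against 1.74% and 1.37% of all tested genes. The 2 were *Fga* (log2 fold change 0.27) and *Cyp2e1* (0.31), with edgeR adjusted p = 0.00852 and 0.00908. Summed markers of Kupffer cells and macrophages (12 genes) were 97.5 to 141.3 CPM in C75S and 104.6 to 135.4 CPM in WT, with 0 of 2 tested genes called; *Adgre1* and *Timd4* had at most 3 counts in any library. The 12 endothelial markers summed to 39.2 to 50.2 CPM in C75S and 38.2 to 47.1 CPM in WT, with 0 of 7 called, and *Clec4g* and *Vwf* had at most 3 counts. Of the 7, 6 lay above 0 on the log2 scale (median 0.41). Every C75S library was above every WT library for 3 and below for 0, against 9.02% and 8.96% of all tested genes. An unadjusted edgeR p under 0.05 was reached by 2 of the 7 (all tested genes: 13.4%). Stellate cell and fibroblast markers summed to 59.2 to 76.0 CPM in C75S and 73.8 to 95.2 CPM in WT. Of the 6 tested, 3 lay above 0 on the log2 scale and 3 below (median 0.04). Only *Acta2* was called, higher in C75S (0.82, edgeR adjusted p = 0.0255), against 1.74% of all tested genes called higher. *Des* and *Lum* had at most 3 counts. Cholangiocyte markers summed to 251.5 to 321.1 CPM in C75S and 212.4 to 221.3 CPM in WT, above in every C75S library; *Krt19* rose (0.80, edgeR adjusted p = 0.00151), the only 1 called of 9 tested, and *Cftr* was at 0. Of the 9, 6 lay above 0 on the log2 scale (median 0.47). The genotypes did not overlap for 4, all with C75S above WT, and 5 had an unadjusted edgeR p under 0.05, against 9.02% and 13.4% of all tested genes. Lymphocyte markers reached at most 0.474 CPM in sum. The part of these other cell types in the results that follow was not tested, and in a bulk sample a smaller share of a cell type and less RNA per cell cannot be told apart.

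Most of the receptors and coregulators were at similar levels in the genotypes. Of the 37 tested genes, 3 passed an adjusted p of 0.05 in edgeR's quasi-likelihood test over all 12741 tested genes, and all 3 fell in C75S: *Rora* by 12.7%, *Pparg* by 21.4% and *Thra* by 29.8%. That is 8.11% of the tested receptors and coregulators, against 3.11% of all tested genes called in either direction and 1.37% called lower, and with so few genes the shares are a description. At an unadjusted p of 0.05 the counts were 7 of the 37 (18.9%) and 13.4% of all genes. The genotypes did not overlap for 6 of the 37 (16.2%), close to the 18% of all genes. C75S was above WT for 1, *Nr1d2*, against 9.02% of all genes, and below WT for 5, *Pparg*, *Thra*, *Rora*, *Nr1h4* and *Nr2c2*, against 8.96% of all genes. The median log2 fold change was -0.02, against -0.003 over all genes, with 16 above 0 and 21 below. For 32 of the 37 the change was smaller than 0.25 on the log2 scale. The 95% interval of a log2 fold change reached a median of 0.15 to either side, and for the 25 genes with a mean of at least 20 CPM it reached at most 0.17.

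**Figure D1:**
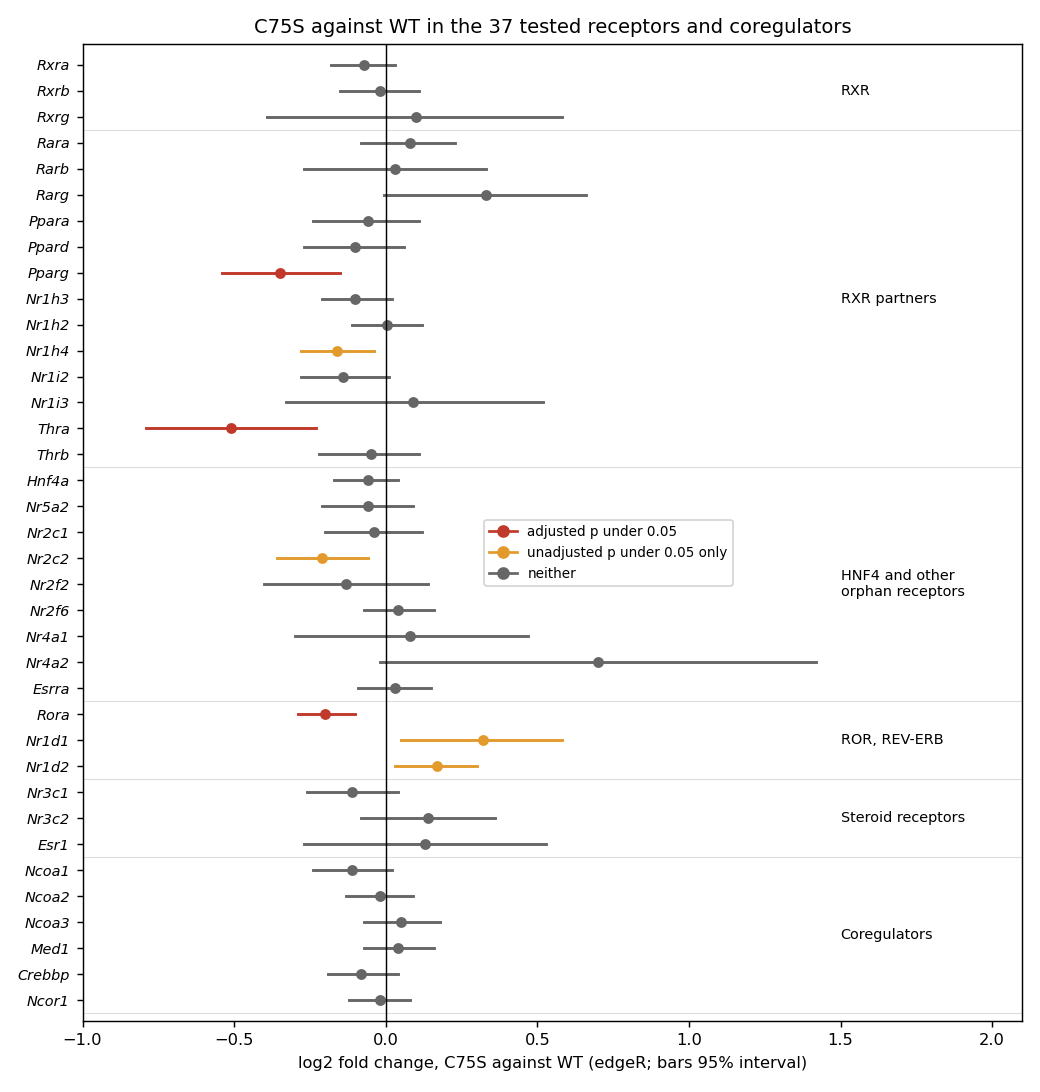
Log2 fold changes of the 37 tested receptors and coregulators in C75S against WT (x axis, log2) with 95% intervals as bars, from edgeR's quasi-likelihood fit, 1 gene per row. Red marks an adjusted p under 0.05 and orange an unadjusted p under 0.05 only. *Rora*, *Pparg* and *Thra* are the 3 genes that passed an adjusted p of 0.05, and all lie below 0.

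Scaled by the merged exon length of each gene, the levels spanned the range from *Hnf4a* down to receptors near the limit of counting. *Hnf4a*, the receptor that maintains hepatocyte identity, had a mean of 118 CPM per kilobase in a range of 110 to 124, above every library of the next gene. *Nr1h4* (FXR) followed at 49.1 CPM per kilobase and was also separate from the genes below it. *Rxra* (37.7) and *Nr1i2* (37.3) overlapped each other, and *Nr2f6* (32) and *Nr1h3* (28.5) came next. The rest of the 10 highest were *Ncor1* at 21.6, *Nr1h2* at 20.1, and *Rora* and *Nr3c1* at 14.9 CPM per kilobase each, the last pair overlapping. *Esrra* (14.3) overlapped *Nr3c1*, and *Rxrb* (14.2) overlapped *Esrra*, so the cut at 10 falls among genes of similar level. The order also depends on the length used. Scaled by the longest transcript, the WT means of *Esrra* (24.9) and *Rxrb* (21.6) were above those of *Rora* (19.1) and *Nr3c1* (18.4). At the low end, *Nr4a2* had 0.362 and *Esr1* 0.281 CPM per kilobase.

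**Figure D2:**
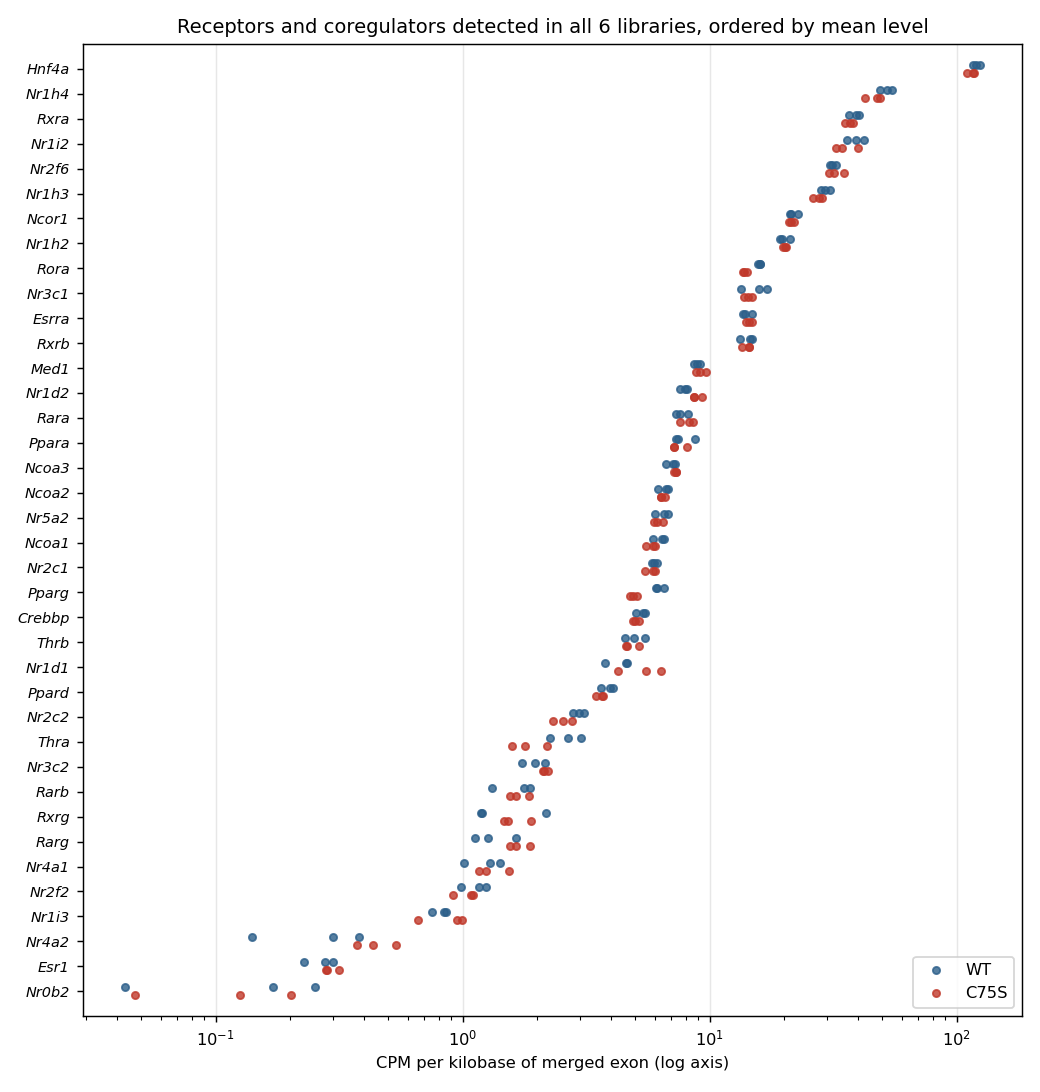
Level of each receptor or coregulator detected in all 6 libraries (CPM per kilobase of merged exon, log x axis), with 1 point per library, WT in blue and C75S in red. *Hnf4a* stands above all others, and the points of C75S and WT lie together for most genes.

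RXR, the shared dimer partner, was not called in any of its 3 forms. *Rxra*, the main hepatic RXR, was measured at 193, 207 and 202 CPM in C75S replicates 1, 2 and 3 and at 199, 214 and 220.1 CPM in WT replicates 1, 2 and 3. The genotypes overlapped, with a log2 fold change of -0.07 (95% interval -0.18 to 0.03) and an edgeR adjusted p of 0.604. *Rxrb*, the broadly expressed form, was at 53.6, 57.2 and 57.1 CPM in C75S and 59.2, 57.9 and 53.0 CPM in WT (-0.02, interval -0.15 to 0.11, edgeR adjusted p = 0.941). *Rxrg*, a form best known from muscle and brain, was at 4.36, 3.51 and 3.37 CPM in C75S and 4.99, 2.73 and 2.77 CPM in WT (0.10, interval -0.39 to 0.58, edgeR adjusted p = 0.915). The intervals of *Rxra* and *Rxrb* lie between -0.18 and 0.11, whereas that of *Rxrg* is wide. Per kilobase, *Rxra* supplied a mean of 71.0% ± 2.68 of RXR transcripts in WT and 70.1% ± 0.4 in C75S (SD, n = 3 each; exact two-sided permutation p = 0.7, where 0.1 is the smallest that 3 against 3 allows). This and the family shares below use merged exon length and depend on that choice. Scaled by the longest transcript, the WT means were 43.0 CPM per kilobase for *Rxra*, 21.6 for *Rxrb* and 1.66 for *Rxrg*.

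The *Rxra* gene lies on chromosome 2 from 27676440 to 27762957 on the plus strand of GRCm38. Among the promoter windows of the set, the 1 before its second RefSeq start holds the half-site AGGTCA, the hexamer that RXR and most of its partners contact, in each orientation. The 100 bases before that start (chr2:27709192-27709291, plus strand, GRCm38.p6, from RefSeq) are shown here, and capitals mark AGGTCA or its reverse complement TGACCT.
Rxra, second start: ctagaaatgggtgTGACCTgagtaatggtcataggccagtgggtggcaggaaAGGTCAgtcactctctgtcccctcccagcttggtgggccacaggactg

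The half-site was searched on both strands in the 250 bases before RefSeq starts, in 53 windows of 37 of the 42 genes. *Thra*, *Nr3c1*, *Ncoa2*, *Ncoa3* and *Hnf4g* had no window in the search. Chromosome 18, which carries *Nr3c1*, was left out for the set but not for the windows of all genes given below. It stood in 9 windows of 8 genes (*Rxra*, *Rxrg*, *Rarg*, *Pparg*, *Nr1h4*, *Thrb*, *Nr1d2* and *Nr5a2*), or 17% of the windows. Among 32851 windows of all genes the share was 14%. A match of 6 letters is a description of the window and no evidence of binding.

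The retinoic acid receptors, which bind all-trans retinoic acid, gave 0 called genes of 3. *Rara* was at 33, 37.4 and 35.9 CPM in C75S and 31.9, 35.8 and 33.2 CPM in WT (0.08, edgeR adjusted p = 0.718). *Rarb*, itself a retinoic acid target, was at 8.67, 9.72 and 8.24 CPM in C75S and 9.88, 9.36 and 6.89 CPM in WT (0.03, edgeR adjusted p = 0.962). The ranges of both overlapped. *Rarg* was at 6.66, 6.97 and 7.97 CPM in C75S and 5.41, 4.78 and 7.03 CPM in WT; WT replicate 3 lay among the C75S libraries, and the log2 fold change of 0.33 had an interval of -0.0064 to 0.66 (edgeR adjusted p = 0.386). *Rara* supplied 70.6% of RAR transcripts per kilobase in C75S and 71.9% in WT (exact two-sided permutation p = 0.4, n = 3 each).

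Among the peroxisome proliferator-activated receptors, *Pparg* fell and the others were not called. *Pparg*, a lipid-storage receptor that is scarce in normal hepatocytes, was at 15.0, 14.1 and 14.5 CPM in C75S and at 17.9, 19.3 and 18.1 CPM in WT. Every C75S library was below every WT library, with means of 14.5 ± 0.449 and 18.5 ± 0.769 CPM (SD, n = 3 each). The log2 fold change was -0.35 (SE 0.09), with an edgeR adjusted p of 0.043. The call was close to the threshold: leaving out any of the 6 libraries ended it (edgeR adjusted p from 0.0531 to 0.186, log2 fold change -0.37 to -0.31), as did library-size scaling (0.063) and DESeq2 (0.0639). *Ppara*, the fasting-state regulator of fatty acid oxidation, was at 27.6, 31.1 and 27.6 CPM in C75S and 28.5, 28.1 and 33.6 CPM in WT (-0.06, edgeR adjusted p = 0.825). *Ppard*, a broadly expressed form, was at 26.2, 27.7 and 27.6 CPM in C75S and 30.5, 29.8 and 27.3 CPM in WT (-0.10, edgeR adjusted p = 0.627). Their ranges overlapped between the genotypes. Of PPAR transcripts per kilobase, *Pparg* made up 32.2%, 28.8% and 31.1% in C75S and 34.6%, 36.7% and 33.1% in WT. The genotypes did not overlap in that share either, and the exact two-sided permutation p of 0.1 is the smallest that 3 against 3 libraries allows. The size of the share depends on the length used. Scaled by the longest transcript, WT means were similar, 8.81 CPM per kilobase for *Ppara*, 7.83 for *Ppard* and 8.69 for *Pparg*. By merged exon length they were 7.84, 3.88 and 6.25.

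*Pparg* lies on chromosome 6 from 115360951 to 115490399 on the plus strand. The 100 bases before its RefSeq start at 115422066 (chr6:115421966-115422065, plus strand, GRCm38.p6) are shown because *Pparg* is among the 3 genes that fell, and they hold no AGGTCA. The windows before its other starts hold 1 half-site each, 9 and 28 bases before the start, but both lie within annotated exons of *Pparg*.
Pparg, start at 115422066: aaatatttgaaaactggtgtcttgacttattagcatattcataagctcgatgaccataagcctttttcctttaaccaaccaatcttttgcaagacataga

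The liver X receptors, which bind oxysterols, gave 0 called genes of 2. *Nr1h3* (LXR-alpha) was at 66.2, 71.5 and 69.9 CPM in C75S and 77.1, 71.3 and 73.6 CPM in WT (-0.10, interval -0.21 to 0.02, edgeR adjusted p = 0.501). *Nr1h2* (LXR-beta) was at 67.7, 68.1 and 66.5 CPM in C75S and 71.2, 65.6 and 64.7 CPM in WT (0.0056, interval -0.11 to 0.12, edgeR adjusted p = 0.978). Both pairs of ranges overlapped. *Nr1h3* supplied 59.5% ± 0.67 of LXR transcripts per kilobase in WT and 57.8% ± 1.01 in C75S (SD, n = 3 each; exact two-sided permutation p = 0.1).

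The receptors for bile acids and foreign compounds gave 0 called genes of 3. *Nr1h4* (FXR), the bile acid sensor, was at 97.6, 113 and 110 CPM in C75S and 120.0, 113 and 126 CPM in WT. C75S replicate 2 (112.9) and WT replicate 2 (113.0) all but touched, and the other libraries were apart. The log2 fold change of -0.16 (SE 0.06) had an unadjusted p of 0.00948 and an edgeR adjusted p of 0.154. *Nr1i2* (PXR), the receptor for drugs and bile acids, was at 83.3, 87.5 and 102 CPM in C75S and 92.2, 107 and 100 CPM in WT (-0.14, interval -0.28 to 0.01, edgeR adjusted p = 0.418). Its ranges overlapped. *Nr1i3* (CAR), its relative, was at 2.93, 4.17 and 4.39 CPM in C75S and 3.32, 3.7 and 3.78 CPM in WT (0.09, interval -0.33 to 0.52, edgeR adjusted p = 0.903). That level is low and uncertain: *Tomm40l* on the opposite strand shares 3304 exon bases with *Nr1i3*, and 86.9% of the reads over *Nr1i3* fell on that strand.

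Of the thyroid hormone receptors, *Thra* fell and *Thrb* did not pass the test. *Thra*, the lesser form in liver, was at 7.29, 8.25 and 10.2 CPM in C75S and at 13.9, 12.3 and 10.4 CPM in WT. The genotypes did not overlap, although C75S replicate 3 and WT replicate 3 were close. The means were 8.57 ± 1.46 and 12.2 ± 1.74 CPM (SD, n = 3 each). *Thra* changed by -0.51 on the log2 scale (SE 0.14), with an edgeR adjusted p of 0.0385. Unstranded counts ended the call (edgeR adjusted p = 0.0688), as did leaving out the first (0.202) or second (0.128) C75S library or the first (0.178) or second (0.132) WT library. *Thrb*, the main hepatic form, was at 33.9, 34.2 and 38.5 CPM in C75S and 36.5, 33.6 and 40.5 CPM in WT, overlapping ranges (-0.05, edgeR adjusted p = 0.84). *Thra* made up 25.7%, 27.9% and 29.7% of thyroid hormone receptor transcripts per kilobase in C75S and 38.0%, 37.1% and 29.2% in WT, where WT replicate 3 lay among the C75S libraries (exact two-sided permutation p = 0.2). Scaled by the longest transcript, WT means were 4.99 CPM per kilobase for *Thra* and 5.94 for *Thrb*, closer than the merged-exon means of 2.65 and 4.98. *Vdr*, the vitamin D receptor, had 1, 1 and 0 counts in C75S and 0 in each WT library, and *Nr1h5*, a second FXR gene, had 1 count in all. Neither could be compared at this depth.

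**Figure D3:**
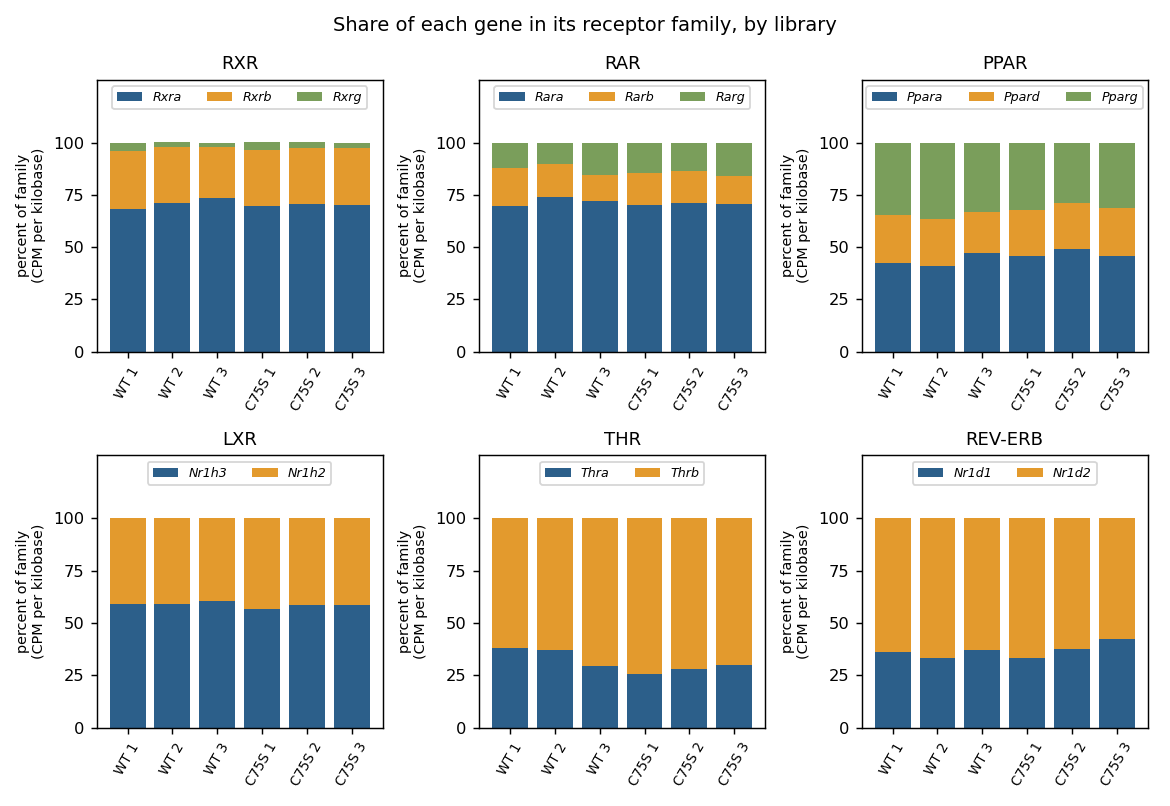
Share of each gene in 6 receptor families (y axis, percent of the family's summed CPM per kilobase of merged exon), with 1 stacked bar per library, WT to the left of C75S. *Pparg* is 28.8% to 32.2% of PPAR transcripts in C75S and 33.1% to 36.7% in WT; the shares of *Rxra* overlap.

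*Thra* and *Nr1d1*, the gene of REV-ERB-alpha, are convergent neighbours on chromosome 11. *Thra* runs from 98740638 to 98769006 on the plus strand and *Nr1d1* from 98767932 to 98775333 on the minus strand, so their 3' ends overlap by 1075 bases, of which 263 are exon in both. Strand-specific counting keeps such reads apart, and *Nr1d1* had 15 to 35 forward-strand counts per library, 7.67% of the reads over it. *Rara* lies 158812 bases from *Thra*.

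The ROR and REV-ERB receptors, which compete for the same elements in clock genes, held the lowest adjusted p of the set. *Rora*, an activator of *Arntl*, was at 181, 179 and 185 CPM in C75S and at 209.7, 209.3 and 205 CPM in WT. The genotypes were well apart, with means of 181.6 ± 3.25 and 208 ± 2.66 CPM (SD, n = 3 each). *Rora* changed by -0.20 on the log2 scale (SE 0.05), with an edgeR adjusted p of 0.019. The call was made in 11 of 14 other settings and ended when C75S replicate 1 (edgeR adjusted p = 0.0597), C75S replicate 2 (0.089) or WT replicate 2 (0.104) was left out, with the log2 fold change between -0.21 and -0.18 in all 6 fits that leave out a library. *Nr1d1*, a repressor of *Arntl*, was at 13.1, 17.1 and 19.5 CPM in C75S and 14.1, 11.6 and 14.3 CPM in WT; C75S replicate 1 lay among the WT libraries, and the change was 0.32 on the log2 scale (SE 0.13, unadjusted p 0.0207, edgeR adjusted p = 0.238). Without that library it was 0.45 with an edgeR adjusted p of 0.0449. *Nr1d2*, the gene of REV-ERB-beta, was at 46.7, 50.3 and 46.6 CPM in C75S and 43.7, 41.2 and 43.1 CPM in WT. Each C75S library was above each WT library, but the log2 fold change of 0.17 (SE 0.06) did not pass (unadjusted p 0.0159, edgeR adjusted p = 0.207).

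The promoter windows of *Rora* and *Nr1d2* are shown as examples of a start without and with the half-site that ROR and REV-ERB proteins also contact. A link between the half-site and the change of either gene was not tested, and 9 of the 53 windows of the set hold it. *Rora* lies on chromosome 9 from 68653786 to 69388246 on the plus strand, and the 100 bases before its start are chr9:68653686-68653785 (GRCm38.p6). *Nr1d2* lies on chromosome 14 from 18204054 to 18239127 on the minus strand; its window, chr14:18239128-18239206, is given on that strand and leaves out 21 exon bases next to the RefSeq start. Capitals mark AGGTCA, which stands 77 bases before the *Nr1d2* start.
Rora: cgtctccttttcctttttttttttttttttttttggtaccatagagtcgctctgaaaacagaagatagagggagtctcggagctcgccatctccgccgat
Nr1d2: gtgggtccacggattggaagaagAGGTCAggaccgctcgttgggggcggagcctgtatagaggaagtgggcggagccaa

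**Figure D4:**
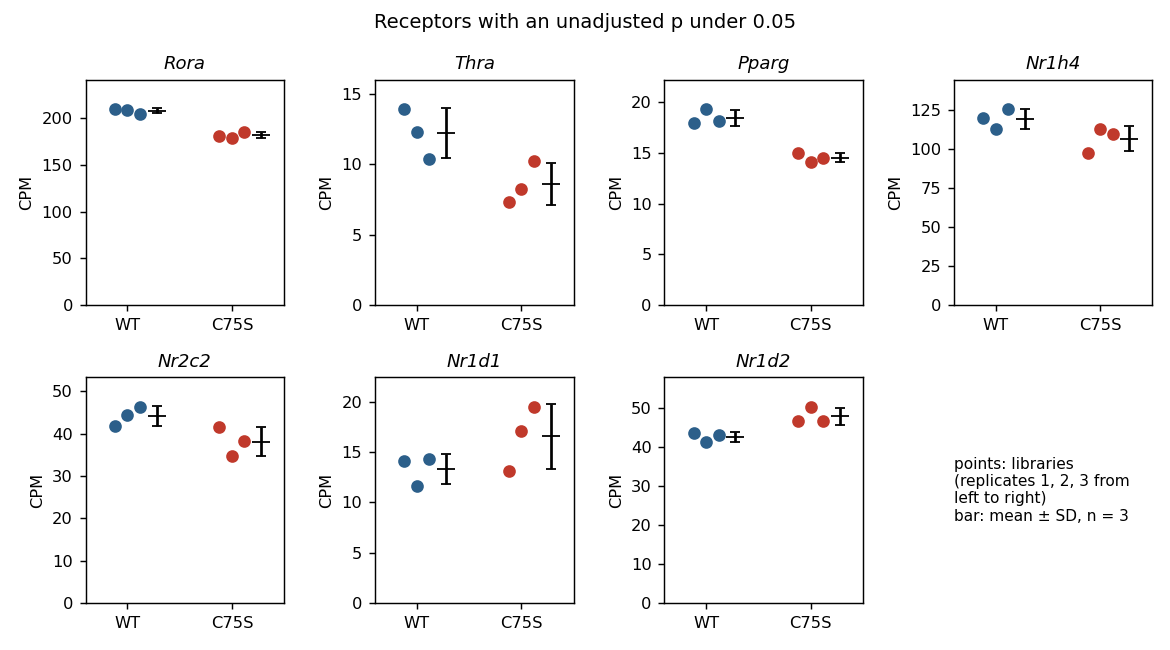
CPM in each library (y axis, from 0) of the 7 receptors with an unadjusted p under 0.05, with WT to the left of C75S and bars for the mean ± SD (n = 3). *Rora*, *Pparg* and *Thra* are lower in every C75S library, *Nr1d2* is higher in every C75S library, and the *Nr1d1* libraries overlap.

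Of the remaining receptors, none was called. *Hnf4a* was at 533, 564 and 568 CPM in C75S and 559.9, 579.7 and 601 CPM in WT, overlapping ranges (-0.06, interval -0.17 to 0.04, edgeR adjusted p = 0.654). *Nr2c2* (TR4), an orphan receptor that binds direct repeats of the half-site, was at 41.5, 34.6 and 38.2 CPM in C75S and 41.7, 44.3 and 46.3 CPM in WT. C75S replicate 1 nearly reached WT replicate 1, and the log2 fold change was -0.21 (SE 0.07, unadjusted p 0.0075, edgeR adjusted p = 0.136); 7.83% of the reads over *Nr2c2* were on the opposite strand, where *Mrps25* overlaps it. Its paralog *Nr2c1* (TR2) had a log2 fold change of -0.04. *Nr2f6*, an orphan repressor, was at 95.2, 104 and 90.8 CPM in C75S and 91.8, 93.6 and 96.6 CPM in WT (0.04, edgeR adjusted p = 0.822). *Nr2f2* (COUP-TFII) was at -0.13 on the log2 scale (edgeR adjusted p = 0.737) and *Nr5a2* (LRH-1), a regulator of bile acid synthesis, -0.06 (0.795). The counts were too few to test for *Hnf4g* (0 to 3 per library), *Nr2f1* (0 to 2) and *Nr0b2* (1 to 6), the gene of SHP, an FXR-induced corepressor.

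The steroid receptors and the immediate-early NR4A receptors gave no call. *Nr3c1*, the glucocorticoid receptor, was at 114, 106 and 110 CPM in C75S and 103, 122 and 131 CPM in WT, with overlapping ranges (-0.11, edgeR adjusted p = 0.539). *Nr3c2*, the mineralocorticoid receptor, was at 0.14 on the log2 scale (edgeR adjusted p = 0.641), *Esr1* 0.13 (0.843) and *Esrra*, an orphan regulator of mitochondrial genes, 0.03 (0.895). *Nr4a1* was at 4.12 to 5.4 CPM in C75S and 3.56 to 5.0 CPM in WT (0.08, edgeR adjusted p = 0.906). *Nr4a2* had the highest log2 fold change of the 37, 0.70, on 2.18, 1.52 and 1.77 CPM in C75S and 0.57, 1.22 and 1.55 CPM in WT. Those ranges overlap at WT replicate 3, and the interval of -0.02 to 1.42 is the widest of the set (edgeR adjusted p = 0.392).

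The 6 coregulators gave 0 called genes, with log2 fold changes between -0.11 and 0.05. *Ncor1*, the corepressor that holds histone deacetylase at unliganded receptors, was at 267.5, 282 and 274 CPM in C75S and 270.5, 272 and 291 CPM in WT (-0.02, edgeR adjusted p = 0.925). The p160 coactivators *Ncoa1* (-0.11), *Ncoa2* (-0.02) and *Ncoa3* (0.05) had edgeR adjusted p-values of 0.504, 0.927 and 0.775. *Med1*, the Mediator subunit that contacts receptors, was at 0.04 on the log2 scale (edgeR adjusted p = 0.802), and *Crebbp*, a histone acetyltransferase, -0.08 (0.624). A wider list of 32 coregulators not in the set gave the same picture, with 0 called, 0 at an unadjusted p of 0.05 and a median log2 fold change of -0.0021. Its smallest p was that of *Cited2* (-0.10, edgeR adjusted p = 0.385). Of 13 other nuclear receptors only 4 could be tested and 0 were called. Of those 4, 1 lay above 0 and 3 below, with a median log2 fold change of -0.37. An unadjusted edgeR p under 0.05 was reached by 2 of the 4 (all tested genes: 13.4%).

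Genes known to respond to these receptors were read from the same fit. Over all tested genes 1.74% were called higher and 1.37% lower, and the counts of each list stand beside those shares as a description. Of 24 PPAR-alpha targets, 4 fell and 0 rose, with a median log2 fold change of -0.11. The list was not uniform, with 18 below 0 and 6 above. The genotypes did not overlap with C75S below WT for 7 and above for 1, against 8.96% and 9.02% of all genes. The 1 above was *Cyp4a10* (0.56, edgeR adjusted p = 0.116), named after its values were seen. *Cidec*, a lipid droplet protein also known as a target of PPAR-gamma, was at 17.9, 17.8 and 18.2 CPM in C75S and 30.3, 32.3 and 33.2 CPM in WT (-0.83, edgeR adjusted p = 6.91e-07). *Fgf21*, a fasting hormone, fell by 0.96 on the log2 scale (edgeR adjusted p = 0.0122), *Fabp1*, a fatty acid carrier, by 0.49 (0.0164) and *Angptl4*, a lipoprotein lipase inhibitor, by 0.21 (0.042). *Cidec* was called in all 14 other settings. *Fgf21* was no longer called once C75S replicate 3 or WT replicate 1 was left out. The same held for *Fabp1* with C75S replicate 1 or WT replicate 3, and for *Angptl4* with replicate 1 or 3 of either genotype or with library-size scaling (edgeR adjusted p = 0.0511).

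The LXR targets went both ways: of 13 tested, 2 rose and 1 fell, with a median log2 fold change of 0.10. *Scd1*, the stearoyl-CoA desaturase of liver, was at 1392, 1362 and 1436 CPM in C75S and 1132, 1231 and 1185 CPM in WT (0.24, edgeR adjusted p = 0.012). Its paralog *Scd2* rose by 0.26 (0.0441), and *Mlxipl*, the glucose-responsive factor ChREBP, fell by 0.20 (0.0205). Leaving out WT replicate 1 ended the call of *Scd1*, and 4 of the 6 fits with a library left out ended those of *Scd2* and of *Mlxipl*. *Scd2* was not called by DESeq2 either (adjusted p = 0.0649), whereas *Mlxipl* was called in all settings that kept the 6 libraries. Of 11 bile acid genes tested 1 fell, *Slc10a1*, the bile acid uptake transporter, at 8.9, 10.8 and 12.1 CPM in C75S and 14.7, 16.2 and 14.8 CPM in WT (-0.52, edgeR adjusted p = 0.0122; lost without C75S replicate 1 or WT replicate 2). The median of that list was -0.06.

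Of 17 PXR and CAR targets tested, 2 fell, both P450 enzymes, and 0 rose (all genes: 1.37% lower, 1.74% higher), with a median log2 fold change of -0.07. Because reads shared between near-identical P450 copies were not counted, these levels are uncertain. *Cyp2b10*, the classical CAR target, was at 616, 817 and 787 CPM in C75S and 1079, 1040.0 and 1018 CPM in WT (-0.50, edgeR adjusted p = 0.00731; lost without WT replicate 1 or WT replicate 3). *Cyp3a25* fell by 0.33 on the log2 scale (edgeR adjusted p = 0.00544) and was called in all 14 other settings.

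Thyroid hormone targets gave 0 called of 8 and a median log2 fold change of -0.06. The smallest p was that of *Me1*, the cytosolic malic enzyme, at 114, 111 and 105 CPM in C75S and 114, 123 and 126 CPM in WT (-0.14, edgeR adjusted p = 0.212). Of 12 HNF4-alpha targets, 5 lay above 0 and 7 below (median -0.02 on the log2 scale), and 2 rose (all genes: 1.74%): *Apoa2*, an HDL apolipoprotein, at 483, 473 and 549.5 CPM in C75S and 370.2, 386 and 350.0 CPM in WT (0.45, edgeR adjusted p = 2.91e-05), and *Otc*, a urea cycle enzyme (0.73, edgeR adjusted p = 0.000322). Both were called in all 14 other settings. Of 13 glucocorticoid targets 2 fell, *G6pc*, the glucose-6-phosphatase of gluconeogenesis (-1.05, edgeR adjusted p = 0.0307), and *Fkbp5*, a chaperone of the glucocorticoid receptor (-0.26, edgeR adjusted p = 0.034), and 4 of the 6 fits with a library left out no longer called either. *Fkbp5* overlapped between the genotypes, at 268, 271.5 and 299.9 CPM in C75S and 295.5, 353 and 358 CPM in WT. Of the 13 glucocorticoid targets, 2 lay above 0 and 11 below, with a median log2 fold change of -0.05. The genotypes did not overlap for 3, all with C75S below WT, against 8.96% of all genes. An unadjusted edgeR p under 0.05 was reached by 5 (all tested genes: 13.4%).

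Clock genes that ROR and REV-ERB regulate gave 0 called of 13 and a median log2 fold change of -0.06. *Npas2*, a partner of *Arntl*, was at 9.7, 8.87 and 7.01 CPM in C75S and 11.6, 13.3 and 10.4 CPM in WT, with no overlap (-0.46, edgeR adjusted p = 0.0618). *Arntl* was at 35.4, 36.8 and 38.1 CPM in C75S and 43.6, 40.2 and 43.2 CPM in WT (-0.20, edgeR adjusted p = 0.131). *Cry1*, a core repressor that ROR also activates, was at 18.8, 19.4 and 20.3 CPM in C75S and 24.5, 22.5 and 23.3 CPM in WT (-0.27, edgeR adjusted p = 0.108). The genotypes did not overlap for 5 of the 13: C75S was below WT for *Npas2*, *Arntl*, *Cry1* and *Hlf* (-0.15, edgeR adjusted p = 0.527), against 8.96% of all genes. It was above WT for *Per2*, a core repressor, at 25.3, 23.4 and 23.8 CPM in C75S and 22.2, 20.1 and 22.1 CPM in WT (0.17, edgeR adjusted p = 0.393), against 9.02% of all genes. All but *Npas2* were picked here after their values were seen. The labels used here do not give the hour at which cells were collected.

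**Figure D5:**
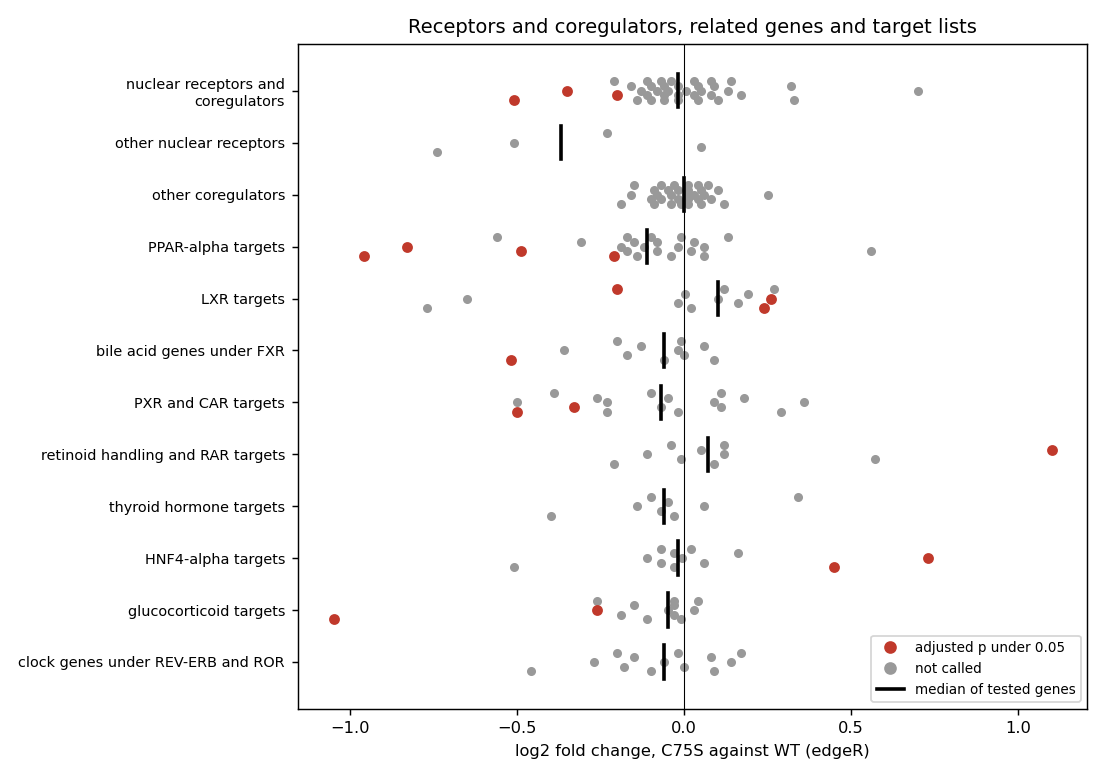
Log2 fold changes of the tested genes in each list (x axis, log2), with 1 point per gene, genes with an adjusted p under 0.05 in red and a black line at the list median. The PPAR-alpha list has 4 called genes, all below 0, and the lists of clock genes, thyroid hormone targets and other coregulators have none.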

How the data were processed

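Total RNA of isolated hepatocytes was sequenced in 6 libraries, grouped as 3 C75S and 3 WT by their titles. The values are raw counts per Ensembl gene deposited by the authors; per the submitters' processing notes, the tools named are Trim Galore 0.6.6, STAR 2.7.9a and edgeR 3.36.0 with builds mm10 and GRCm38, and the annotation release is not given in the sources used here. The reverse-strand column was used, its sum being 32.9 to 33.9 times the forward-strand sum. Rows that name no gene entered neither library sizes nor tests: unmapped reads were 4.37% to 5.81% of a library, multimapping 17.98% to 18.54%, no feature 4.99% to 5.55% and ambiguous 0.89% to 0.93%. Multimapping reads are thus missing from genes with near-identical copies. Of the 55487 gene rows, 55227 matched GENCODE M21 (GRCm38), which gave positions and exon lengths. Promoter sequences are those of RefSeq for GRCm38.p6.

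Counts were filtered with filterByExpr (minimum count 10, minimum total 15), scaled by TMM and fitted in edgeR 4.0.16 under R 4.3.3, with a two-sided quasi-likelihood F-test with genotype as the only term and Benjamini-Hochberg adjustment over all 12741 tested genes at 0.05. CPM values use TMM-scaled library sizes. Alternatives were other scalings, no filter, unstranded counts, the replicate number as a block, DESeq2 1.42.0, limma-voom 3.58.1 and leaving out each library. On simulated counts with 3 libraries a group, 52.5% of genes changed 1.25-fold, 67.5% changed 1.5-fold and 87% changed 2-fold were recovered. Some calls fell on unchanged genes, and at 1.25-fold and 1.5-fold their share of the calls was above the 0.05 of the threshold. Truly changed were 105 of 121 called genes at 1.25-fold, 135 of 150 at 1.5-fold and 174 of 183 at 2-fold. With no gene changed, 1 was called. The change of *Rora* (-12.7%) was smaller than any simulated. Replicates within a genotype differed by more than sampling noise (chi-square per degree of freedom 4.05 to 8.99), so none was counted as a duplicate.

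Values per library were given for the RXR, RAR, PPAR, LXR and THR families, the bile acid and foreign-compound receptors, the genes with an unadjusted p under 0.05 and the 10 highest per length. From each other list up to 4 genes with an adjusted p under 0.05 were named, or else the 1 with the smallest p; a few results that this rule would name are not reported here. The genes of the set, the lists and this rule were chosen with earlier results of these data known.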

Additional observations from a re-analysis of the deposited data

How the results depend on the processing

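Over all genes the count past an adjusted p of 0.05 was 396, and 201 to 355 when 1 library was left out. Among the 37 tested receptors and coregulators it was 3, and 0 to 2 when 1 library was left out: 0 without C75S replicate 2 or WT replicate 2. Fewer libraries were tested in those fits. Without C75S replicate 1 the single call was *Nr1d1*, higher in C75S. With no filter on low counts 573 genes were called. Of 868 values of 62 genes taken by the naming rule under 14 alternatives, 788 kept their direction and side of the threshold. The 788 include genes that were not called in any setting. Of the others, 56 lost a call, 4 gained a call and 20 reversed. Those 20 came from leaving out a library and touched 12 genes, none of them called: *Rxrb* (log2 fold change -0.06 to 0.02), *Rxrg* (-0.05 to 0.44), *Rarb* (-0.11 to 0.13), *Ppara* (-0.12 to 0.03), *Nr1h2* (-0.02 to 0.05), *Nr1i3* (-0.0097 to 0.25), *Thrb* (-0.12 to 0.02), *Nr2f6* (-0.01 to 0.09), *Nr4a1* (-0.04 to 0.19), *Ncoa2* (-0.06 to 0.0094), *Ncor1* (-0.04 to 0.02) and the macrophage marker *Csf1r* (-0.22 to 0.39). With the replicate number as a block, 480 genes and the same 3 receptors were called, *Angptl4* was not (edgeR adjusted p = 0.0529) and *Npas2* was (0.0318); correlations of same-numbered libraries were 0.017, -0.04 and 0.025, so the numbers were not taken as a pairing, and not every library correlated best with its own number. Depth limits *Vdr*, *Nr1h5*, *Hnf4g*, *Nr2f1* and *Nr0b2*, which had at most 6 counts in any library.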

Other observations

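*Abcb4*, the phospholipid transporter of the bile canaliculus, did not overlap between the genotypes and had a log2 fold change of -0.36 with an edgeR adjusted p of 0.0563. It was called in 7 of 14 other settings, among them the fit without C75S replicate 2 (edgeR adjusted p = 8.92e-05), and its adjusted p ranged from 5.25e-08 to 0.151 over the 14. *Cyp26a1*, the retinoic acid hydroxylase, was at 5.8, 4.03 and 5.46 CPM in C75S and 3.51, 3.27 and 3.44 CPM in WT, above in every C75S library (0.57, edgeR adjusted p = 0.124). Both genes were picked after their values were seen.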
